A study of Mus musculus with 4 samples.

Results

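The genes of MHC class I presentation described here are B2m, the heavy chains H2-K1, H2-D1, H2-Q4, H2-Q6, H2-Q7 and H2-T23, the peptide pump genes Tap1 and Tap2, and the loading factor Tapbp. They were chosen by name and not by their values, and all 10 were found among the 31053 genes of the count matrices. The series holds 4 droplet single-cell RNA-seq libraries of mouse cells sorted as CD45hi, that is, with a high level of a surface protein of blood-derived cells: 1 of aged brain, 1 of young brain, 1 of aged spleen and 1 of young spleen. Per the labels, every group came from mice given Tamoxifen 4 weeks before tissues were taken, in a design that followed tdTomato+ NK cells. That protocol stands in the labels of each library, but it could not be checked that these sorted cells were treated so. The labels also give the cell type of all 4 libraries as neuroblast, which was not used. The sources used here do not give strain, sex, the ages themselves or how many animals went into each library. With 1 library per tissue and age there is no test of any difference: each ratio carries a 95% interval that covers counting error only, and neither the animal nor the preparation can be told apart from age.

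Class I molecules are carried by nearly all nucleated cells. A heavy chain pairs with beta-2 microglobulin, the product of B2m, and holds a short peptide cut by the proteasome. TAP1 and TAP2 pump such peptides into the endoplasmic reticulum, where tapasin, the product of Tapbp, helps load them. H2-K and H2-D present peptides to CD8 T cells, while H2-Q4, H2-Q6, H2-Q7 and H2-T23 belong to the less variable class Ib group, and H2-T23 makes Qa-1, which is read by CD94/NKG2 receptors of NK and T cells. Interferons are known inducers of the pathway, and microglia at rest are known for low class I levels.

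B2m lies on chromosome 2, at chr2:122147686-122153083 on the plus strand (GRCm38). The other 9 lie in the H2 region of chromosome 17: Tapbp at chr17:33915899-33929292, H2-K1 at chr17:33996017-34000347 on the minus strand, Tap1 at chr17:34187553-34197225, Tap2 at chr17:34203527-34216321, H2-D1 at chr17:35262730-35267499, H2-Q4 at chr17:35379617-35385290, H2-Q6 at chr17:35424850-35430055, H2-Q7 at chr17:35439155-35443773 and H2-T23 at chr17:36029773-36032855 on the minus strand. All are protein coding in GENCODE, and all 10 identifiers of the files were found there. RefSeq promoter windows, from 250 bases before to 50 bases after the start site, were at hand for 9 of 10 members, all but Tap2.

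The promoter stretches below are shown because their motif letters differ among the members. H2-K1, H2-D1, H2-Q4, H2-Q6 and H2-Q7 share the kappa B letters GGGNNTTCC followed by an interferon-stimulated response element, and the other 4 hold no such pair. Near its response element B2m holds gggaaagtccc, which read in reverse complement is GGG and TTCC with a wider gap. The letters searched do not cover that form, so they do not tell whether B2m has a kappa B site. Sequences are from RefSeq windows (GRCm38.p6), 5′ to 3′ on the strand of the gene. In the first 5, capitals mark GGGNNTTCC and then GAANNGAAA, here read as its reverse complement. In B2m and H2-T23, capitals mark GAAANNGAA, in H2-T23 as its reverse complement. The H2-D1 and H2-T23 stretches are kept short, since GENCODE places them in the first exon and 5′ UTR of an annotated transcript.
H2-K1: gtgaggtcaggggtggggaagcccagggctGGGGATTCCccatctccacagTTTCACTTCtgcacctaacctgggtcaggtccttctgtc
H2-D1: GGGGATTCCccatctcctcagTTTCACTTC
H2-Q4: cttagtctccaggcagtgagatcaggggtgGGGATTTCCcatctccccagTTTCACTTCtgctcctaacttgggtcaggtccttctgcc
H2-Q6: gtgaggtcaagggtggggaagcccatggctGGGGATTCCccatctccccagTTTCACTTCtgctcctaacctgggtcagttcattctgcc
H2-Q7: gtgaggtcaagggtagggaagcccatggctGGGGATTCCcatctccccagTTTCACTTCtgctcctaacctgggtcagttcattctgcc
B2m: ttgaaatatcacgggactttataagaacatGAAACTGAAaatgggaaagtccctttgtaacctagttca
H2-T23: tcctactgctTTCTCTTTCataaagacaca

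These stretches are at chr17:34000399-34000488 (H2-K1, minus strand), chr17:35262923-35262952 (H2-D1, plus strand), chr17:35379414-35379502 (H2-Q4, plus strand), chr17:35424647-35424736 (H2-Q6, plus strand), chr17:35438992-35439080 (H2-Q7, plus strand), chr2:122147518-122147586 (B2m, plus strand) and chr17:36032805-36032834 (H2-T23, minus strand). GENCODE lists no transcript at those of H2-K1, H2-Q6 and H2-Q7. The H2-Q4 stretch lies in an exon of Gm11131, an antisense transcript, the B2m stretch within a transcript of Patl2 on the other strand, and the H2-T23 stretch also within the antisense transcript A930015D03Rik. The gap between the motifs was 12 bases in H2-K1, H2-D1 and H2-Q6 and 11 bases in H2-Q4 and H2-Q7. Stretches of 89 or 90 bases around the motifs were aligned, and only aligned bases were counted. H2-K1 and H2-D1 were 97.8% identical over 90 bases, and H2-Q6 and H2-Q7 98.9% over 89. The lowest identity was 84.1%, between H2-K1 and H2-Q4, over 82 bases.

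Both strands of all 32851 mouse promoter windows were searched. The kappa B letters GGGNNTTCC occurred in 5.82% of them, GAANNGAAA in 7.52% and both in 0.417%, against 5 of the 9 members with a window. GAAANNGAA, which B2m and H2-T23 hold, occurred in 8.56%, and the 9-letter forms of the response element can overlap in a longer site. A pair of shorter motifs was searched as well: TGACG, the core of an X2 box or cyclic AMP response element, occurred in 20.8% of windows and CCAAT in 37.4%. The Tap1 and Tapbp windows held no match to the kappa B or response element letters, which says only that these letters are not in these windows.

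**Figure D1:**
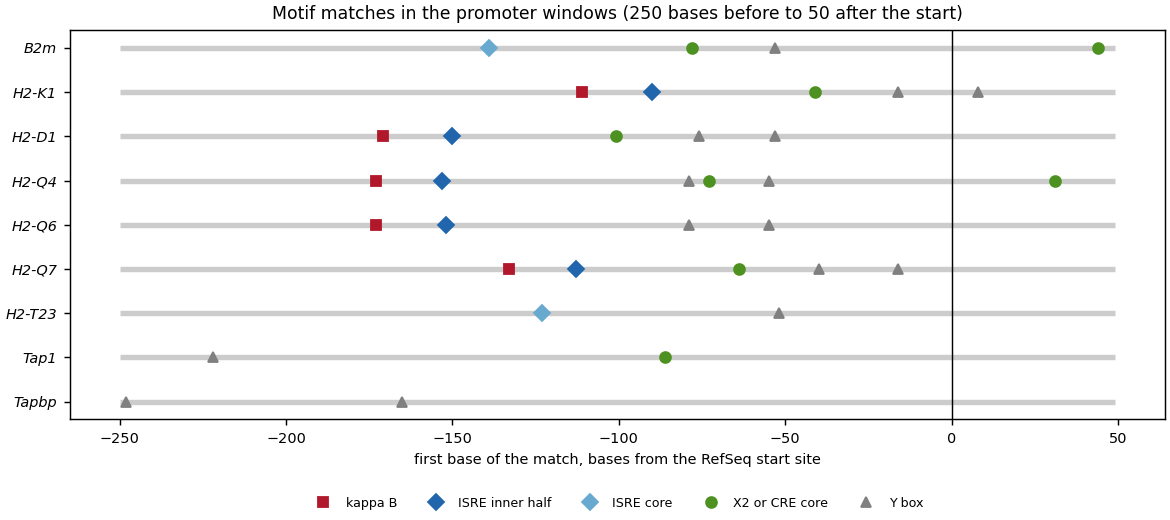
First base of each motif match (x axis, bases from the RefSeq start site) in the promoter windows of the 9 members with a window (y axis), with red squares for kappa B, dark blue diamonds for GAANNGAAA, light blue ones for GAAANNGAA, green circles for TGACG and grey triangles for CCAAT. H2-K1, H2-D1, H2-Q4, H2-Q6 and H2-Q7 carry the kappa B match followed by the GAANNGAAA match, and B2m and H2-T23 carry GAAANNGAA with no match to the kappa B letters searched.

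The libraries held 26384220 to 57011537 UMIs (unique molecular identifiers, counted molecules) in all, and 3561 to 9088 cells after filtering, with a median of 2191.5 to 4634 UMIs per cell. The young brain and the aged spleen shared 5074 called cell barcodes where chance gives 8.84, and 5073 of these had more UMIs in the aged spleen. The other pairs of libraries shared 7 to 52. Of the shared barcodes, 4988 were still in the young brain after the filters and were left out of it. Levels are in CPM, the usual scaling of a gene's UMIs to the summed UMIs of its class of cells in a library. Clusters were named from marker genes, with the members and the loading and immunoproteasome genes kept out of the clustering, so these names are rebuilt and not the authors'. There were 5187 aged and 2640 young microglia in the brain, 867 and 230 border macrophages (of the meninges and vessel borders), and 402 and 19 endothelial cells. In the spleen, NK cells numbered 583 aged and 1733 young, T cells 1942 and 1779, and B cells 1905 and 2375. Microglia of both ages had UMIs of all 12 microglia markers, among them Cx3cr1, Tmem119 and P2ry12. Border macrophages held UMIs of all 11 and endothelial cells of all 12 of their own markers at both ages. Such UMIs alone do not set a class apart, since aged microglia also held all 11 and all 12 of these. Border macrophage markers summed to 6896 CPM in aged border macrophages and 343 in aged microglia, and endothelial markers to 17794 in aged endothelial cells and 542 in aged microglia. Microglia markers summed to 30663 CPM in microglia, 10365 in border macrophages and 14112 in endothelial cells of the aged brain.

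Among these 6 classes, the heavy chains H2-K1 and H2-D1 stood lowest in microglia and highest in NK and T cells of the spleen, with border macrophages, endothelial cells and B cells between them. H2-K1 stood at 738 CPM in microglia, 1209 in border macrophages and 1117 in endothelial cells of the aged brain, and at 384, 714 and 835 in the young brain. In the spleen it stood at 2633 CPM in NK, 2132 in T and 1107 in B cells of the aged library, and at 2742, 2390 and 1217 in the young one. The order NK, T, B was thus the same at both ages, and the NK to B ratio was 2.38 (2.31 to 2.45) aged and 2.25 (2.2 to 2.31) young.

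H2-D1 followed the same order in the spleen, with NK to B ratios of 2 (1.94 to 2.06) and 1.96 (1.91 to 2.01). H2-Q7 was the member with the widest spread among spleen lymphocytes. It stood at 971 CPM in NK, 828 in T and 277 in B cells of the aged spleen and at 918, 769 and 230 in the young one. The NK to B ratio was 3.51 aged and 4 young, and the T to B ratio 2.99 and 3.35, so B cells stood well below both at either age.

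B2m, the shared light chain, spread less: it stood at 2273 CPM in NK, 2051 in T and 1401 in B cells of the aged spleen, and at 2315, 2364 and 1358 in the young one. NK and T cells of the young spleen were nearly level (NK to T ratio 0.98, 0.96 to 0.999). Tapbp was nearly level across lymphocytes, at 163 CPM in NK, 162 in T and 160 in B cells of the aged spleen. Tap1 had another order: NK cells were below B cells in the aged spleen (66.9 against 88.3 CPM, ratio 0.757, 0.639 to 0.892) and in the young spleen (99.5 against 121, ratio 0.823, 0.75 to 0.903).

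Within the aged brain, border macrophages exceeded microglia for H2-K1 (ratio 1.64, 1.57 to 1.71), H2-D1 (1.58, 1.52 to 1.65), H2-Q7 (2.21, 1.86 to 2.62) and Tap1 (1.8, 1.54 to 2.1). B2m was nearly the same in both (1.08, 1.05 to 1.12), as was Tapbp (0.995, 0.901 to 1.1). In the young brain the ratios were 1.86 for H2-K1, 2.46 for H2-D1 and 1.27 for B2m. Of these 2 classes and the endothelial cells of the aged brain, the endothelial cells were highest in H2-Q4, H2-Q6 and H2-Q7. In them H2-Q4 was 3.55 (3.1 to 4.06) and H2-Q7 4.38 (3.76 to 5.08) times the microglial level. The 91 T cells there held H2-Q7 higher still, at 667 against 153 CPM.

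Levels were also compared over 21 class-by-library units, the named classes of at least 50 cells in a library and the 19 young endothelial cells. Over these units the lowest levels were those of ependymal or choroid and erythroid cells of the aged brain. The exceptions were Tap1, at 0 UMIs in the 19 young endothelial cells, and Tapbp, which was next lowest in the neutrophils of the aged brain. B2m was at 497 CPM in the 211 ependymal or choroid cells, and H2-K1 at 182 CPM in the 57 erythroid cells. H2-Q6 had no UMI in erythroid cells, which with 284988 UMIs in the class gives an upper Poisson bound of 12.9 CPM. At the other end, B2m reached 2485 CPM (2304 to 2676) in the 91 T cells of the aged brain and 2482 (2318 to 2655) in the 91 dendritic cells of the young spleen, neighbours whose intervals overlap. The 40 monocytes or macrophages of the aged brain, too few for a unit, held more B2m than both, at 3406 CPM (3121 to 3710). They also held Tap1 at 188 and Tapbp at 279 CPM. The NK cells of the 2 spleens led for H2-K1, H2-D1, H2-Q6 and H2-Q7.

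**Figure D2:**
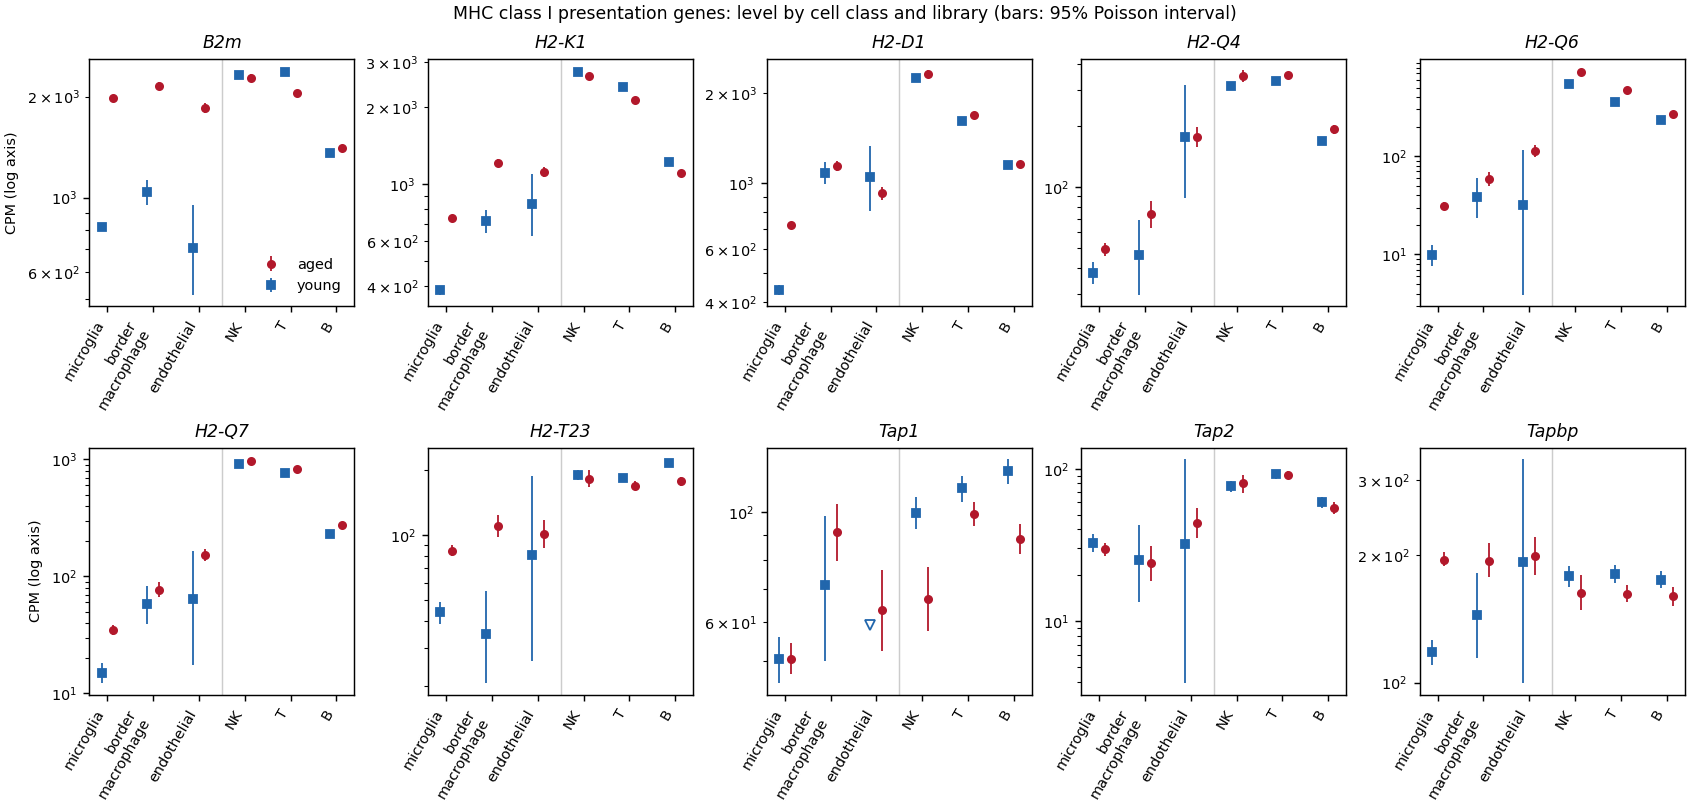
Level of each member (CPM of summed UMIs) in the microglia, border macrophages and endothelial cells of the brain and the NK, T and B cells of the spleen, aged and young, on log axes, with bars for the 95% Poisson interval, counting error only. The open triangle marks the upper bound where young endothelial cells had no Tap1 UMI. H2-K1 runs from 384 CPM in young microglia to 2742 in young NK cells.

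In microglia, B2m and 6 other members were at least 1.5 times higher in the aged than in the young brain and none was lower. The 6 include H2-Q6 and H2-Q7, whose young levels cannot be told apart from free RNA, as described below. Across all genes measured the share past the same fold was 13.2% higher and 4.5% lower. The light chain B2m stood at 1985 CPM aged and 819 CPM young, a ratio of 2.42 (2.35 to 2.49). The classical heavy chain H2-K1 stood at 738 and 384 CPM (1.92, 1.84 to 2.01), and its near relative H2-D1 at 721 and 439 CPM (1.64, 1.58 to 1.71). The intervals of all 3 lay above 1.

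H2-Q4, H2-Q6 and H2-Q7 stood lower in microglia than in any of the other 5 classes at the same age. H2-Q6 stood at 31.4 CPM aged and 9.81 young (3.21, 2.47 to 4.22), from 443 and 66 UMIs. H2-Q7 stood at 34.9 and 15 CPM (2.33, 1.87 to 2.91), and H2-Q4 at 49.6 and 38 CPM (1.3, 1.13 to 1.51), short of the fold used. Free RNA from barcodes of 100 or fewer UMIs held H2-Q6 at 129 CPM in the aged brain and 197 CPM in the young brain, above the microglial levels, and taking off a share of 10% of that profile would leave the young microglia at -66.8 UMIs of H2-Q6 and -44.4 of H2-Q7. Any barcodes shared with the aged spleen were not taken out of that young profile. The negative values mean that 10% is too large a share of it for these cells. How much free RNA they hold is thus not known, and the 2 young levels cannot be told apart from free RNA. The free RNA also held more B2m in the aged brain, 1345 against 672 CPM, with H2-K1 at 828 and 775. With a share of 10% taken off, the microglial ratio was 2.46 for B2m and 2.14 for H2-K1.

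H2-T23, the Qa-1 gene, stood at 84.5 CPM aged and 43.7 young (1.94, 1.7 to 2.21), a ratio that falls to 0.358 once the gene's rate of counting is divided out, as described with the shared barcodes. Among the loading genes Tapbp stood at 195 and 118 CPM (1.66, 1.53 to 1.8). The peptide pump genes were nearly level as counted: Tap1 stood at 50.6 and 50.4 CPM (1, 0.882 to 1.15) and Tap2 at 29.5 and 32.5 (0.905, 0.767 to 1.07). For Tap2 this holds on the counted scale alone, since its ratio was 0.382 (0.306 to 0.478) with the rate divided out. The members' median log2 ratio was 0.84, beside 0.1 for all measured genes.

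Thinned to 1000 UMIs per cell, B2m was found in 82.4% of aged and 52.6% of young microglia (Clopper-Pearson 81.3 to 83.4% and 50.6 to 54.5%), and H2-K1 in 47.8% and 29.8%. Without thinning, B2m was found in 95.7% and 79.6%. Thinning left out cells under that depth, so that 5064 of 5187 aged and 2580 of 2640 young cells remained.

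Different clusters held most of the microglia at the 2 ages, cluster 0 with 4860 aged and 35 young cells, and cluster 17 with 172 aged and 2491 young. Within cluster 17 the ratio of aged to young was 2.51 (2.32 to 2.72) for B2m, 2.16 (1.9 to 2.45) for H2-K1 and 1.56 (1.36 to 1.78) for H2-D1. Within cluster 0, which has few young cells, it was 2.39 (1.91 to 3.03) for B2m, 2.03 (1.44 to 2.95) for H2-K1 and 2.45 (1.68 to 3.72) for H2-D1. For B2m and H2-K1 the difference was thus about as large within each of these clusters as over the class. Within cluster 1, the smallest, it was 1.98 (1.78 to 2.2) for B2m, 1.38 (1.2 to 1.61) for H2-K1 and 1.06 (0.919 to 1.23) for H2-D1, so H2-D1 did not differ there beyond counting error. A further cluster of 1792 aged and 503 young cells held UMIs of all 12 microglia markers but few UMIs per cell, at 0.3 of the median of its library, and stayed unnamed. Other classes' markers moved too: the 11 ependymal or choroid markers summed to 3392 CPM in aged microglia and 691 CPM in young ones, the 9 erythroid markers to 285 and 42.2, and the 12 mural or fibroblast markers to 87.6 and 5.94. In the aged brain B2m stood at 497 CPM in ependymal or choroid cells, 544 in erythroid cells and 1240 in mural cells or fibroblasts, the last above its level in young microglia. NK markers summed to 3.41 CPM aged and 7.58 young, and T markers to 7.1 and 9.36, both near 0. Ribosomal genes took 9.11% of UMIs in aged and 6.91% in young microglia. The part of these shifts in the result was not tested.

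**Figure D3:**
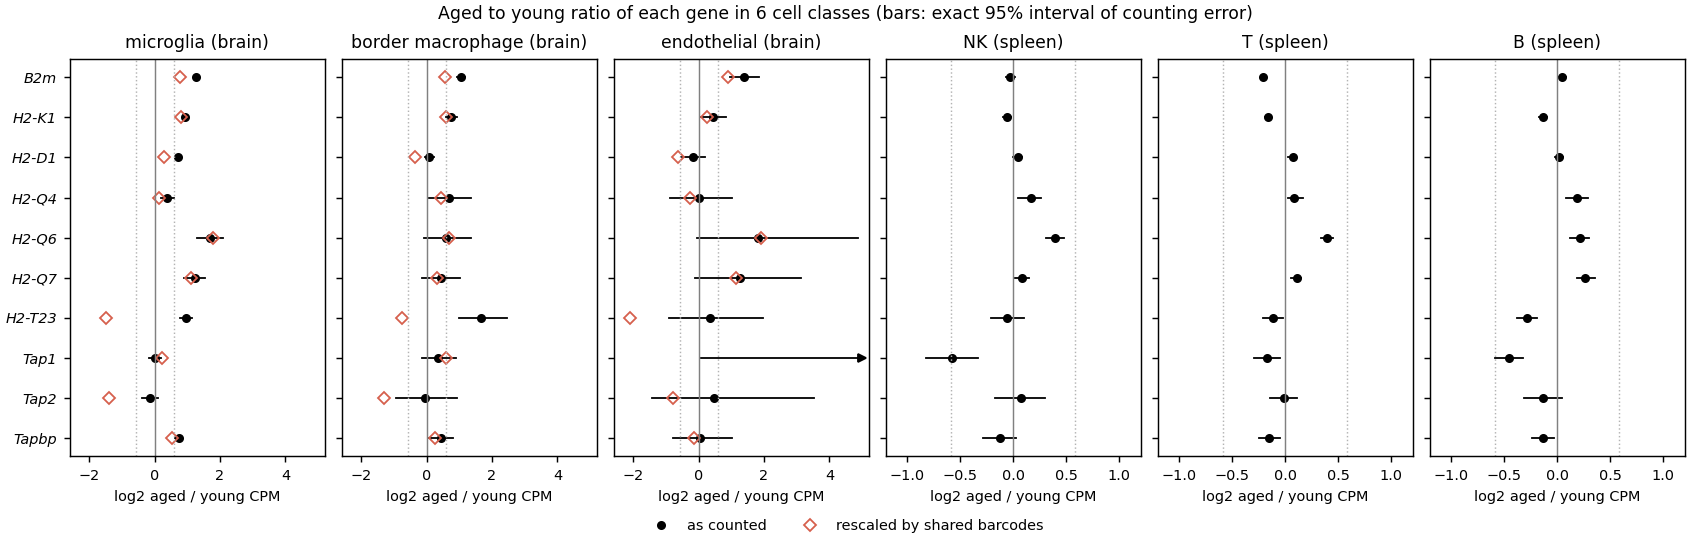
Aged to young ratio of each member (x axis, log2, wider in the brain panels) as counted (black points, with 95% intervals for counting error) and, in the brain, rescaled by the shared barcodes (open diamonds, explained in the next paragraphs). Dotted lines mark the fold of 1.5, and the arrow marks Tap1 with 0 young UMIs. In microglia 8 intervals lie above 1 and none below, while the spleen points lie near a ratio of 1.

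The barcodes shared by the young brain and the aged spleen allow a check on how evenly the 2 libraries counted each gene. At the 5073 barcodes with more UMIs in the aged spleen, the young brain held 0.194 UMIs for each UMI of the aged spleen over all genes, and 95% of the 10182 genes with enough UMIs lay between 0.104 and 0.318. H2-K1 (0.175), H2-Q4 (0.163), H2-Q6 (0.207), H2-Q7 (0.181), Tap1 (0.226) and Tapbp (0.17) lay near the overall ratio. B2m (0.137) and H2-D1 (0.143) were lower, at 0.707 and 0.737 of the overall ratio, still within the middle 95%. H2-T23 was far from it, with 181 UMIs in the young brain against 5032 in the aged spleen (0.036, 0.0308 to 0.0417), and so was Tap2, with 183 against 2229 (0.0821, 0.0702 to 0.0955). Among all genes, H2-T23 lay at the 0.118th percentile and Tap2 at the 0.962th. At barcodes of aged-spleen B cells alone the relative values were close, 0.148 for H2-T23 and 0.406 for Tap2.

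The relative rate of a gene compares the young brain with the aged spleen. Dividing it out of a brain ratio assumes that the aged brain was counted like the aged spleen, which was not tested. Dividing out each gene's relative rate of counting, a step chosen after seeing the data, turned the H2-T23 ratio in microglia to 0.358 (0.294 to 0.436) and that of Tap2 to 0.382 (0.306 to 0.478). It gave 1.71 (1.65 to 1.78) for B2m, 1.73 (1.65 to 1.82) for H2-K1, 1.21 (1.15 to 1.27) for H2-D1, 3.41 for H2-Q6, 2.17 for H2-Q7 and 1.45 for Tapbp. By that scale 4 members were higher and 2 lower, beside 19.2% and 10.9% of all genes. H2-Q6 and H2-Q7, whose young levels cannot be told apart from free RNA, are among the 4. The direction of H2-T23 between the aged and the young brain thus depends on whether that rate is divided out. Over all genes the rate had little relation to the microglial ratio (r of -0.08 across 9146 genes, which are not independent), but the 14 genes counted at under 0.25 of the overall rate had a median aged to young ratio of 5.36. The 1246 genes at 0.5 to 0.8, the range that holds B2m and H2-D1, had a median of 0.987.

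**Figure D4:**
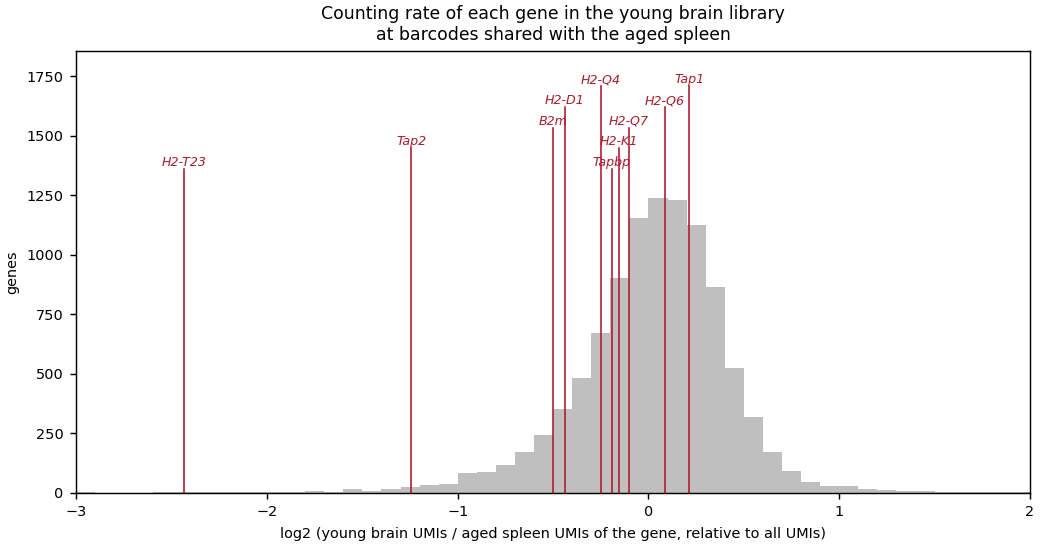
Number of genes (y axis) by the ratio of young-brain to aged-spleen UMIs at the shared barcodes, relative to that of all UMIs (x axis, log2), with the members marked in red. H2-T23, at 0.185 of the overall ratio, and Tap2, at 0.422, lie at the far left, and B2m and H2-D1 lie left of the peak.

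The heavy chains resemble each other: over aligned transcripts H2-K1 and H2-D1 were 90.8% identical and H2-Q6 and H2-Q7 89.3%. The reads come from the 3′ end, and of the 90-base windows in the last 500 bases none of H2-K1, H2-D1 or H2-Q7 was found in another gene's transcript. The share was 9.49% for H2-Q4, 10.9% for H2-Q6 and 13.4% for H2-T23, so counts of these 3 are less certain.

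In border macrophages, 5 members were at least 1.5 times higher in the aged brain and none lower, beside 16.1% and 9.03% of all genes. B2m stood at 2151 CPM aged and 1037 CPM young (2.07, 1.9 to 2.27). H2-K1 stood at 1209 and 714 (1.69, 1.52 to 1.89), whereas H2-D1 was nearly level, at 1141 and 1080 (1.06, 0.965 to 1.16). H2-Q4 (1.59, 1.04 to 2.55), H2-Q6 (1.52, 0.948 to 2.56) and H2-T23 (3.18, 1.97 to 5.44) made up the count. Of these, H2-Q4 stood at 73.7 CPM aged and 46.2 young, below free RNA at 77.2 and 90.4 CPM. H2-Q6 stood at 58.5 and 38.5 CPM, below free RNA at 129 and 197 CPM. Tap1 (1.28, 0.902 to 1.87) and Tap2 (0.965, 0.523 to 1.92) held intervals that include 1. With each gene's rate of counting divided out, 2 members were higher (H2-K1 at 1.52 and H2-Q6 at 1.62) and 2 lower (H2-T23 at 0.588 and Tap2 at 0.408), beside 22.8% and 13.1% of all genes. On that scale B2m was at 1.47 (1.34 to 1.61) and H2-Q4 at 1.34, both short of the fold, and H2-D1 at 0.779 (0.708 to 0.856). The young class had 230 cells, and with a limit of 5% mitochondrial UMIs in place of 10% the count of higher members was 2. The class's own markers summed to 6896 CPM in aged and 10167 in young cells, microglia markers to 10365 and 7351, and ependymal or choroid markers to 3181 and 731. Ribosomal genes took 12.8% and 8.68% of UMIs, and the part of these shifts was not tested.

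Endothelial cells of the young brain numbered 19, with 62268 UMIs, so that only large differences were detectable. B2m stood at 1853 CPM aged and 707 CPM young (2.62, 1.95 to 3.62), and H2-K1 at 1117 and 835 (1.34, 1.02 to 1.8). H2-D1 stood at 922 and 1044 (0.883, 0.689 to 1.15). The members past the fold were 3, B2m, H2-Q6 and H2-Q7, beside 27.6% of all genes higher and 25% lower, and the last 2 rest on 2 and 4 young UMIs. Those young levels of H2-Q6 and H2-Q7, 32.1 and 64.2 CPM, lay below free RNA of the young brain, at 197 and 216 CPM. Rescaled by the shared barcodes, 4 members were higher and 3 lower, beside 29.9% and 24.4% of all genes, with H2-T23 going from 1.26 to 0.233 and Tap2 from 1.37 to 0.581. Tap1 had 115 aged UMIs and 0 young ones. With a floor of 3 counts, or 48.2 CPM, put in for 0 its ratio was 1.32, short of the fold. The lower bound of its interval was 1.05, and in cells thinned to 1000 UMIs the value was 0.269. The class's own markers summed to 17794 CPM in aged and 28955 in young cells, microglia markers to 14112 and 4609, erythroid markers to 6113 and 80.3, and ependymal or choroid markers to 2460 and 321. The part of these shifts was not tested.

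In the spleen no member passed the fold in any of the 3 lymphocyte classes. Of all genes, 5.79% in NK, 8.31% in T and 5.35% in B cells were higher, and 11.2%, 8.24% and 9.2% lower. In T cells B2m stood at 2051 CPM aged and 2364 young (0.868, 0.852 to 0.884) and H2-K1 at 2132 and 2390 (0.892, 0.876 to 0.908). In NK cells the corresponding ratios were 0.982 for B2m and 0.96 (0.934 to 0.987) for H2-K1, and in B cells 1.03 for B2m and 0.91 (0.886 to 0.934) for H2-K1. The members' median log2 ratio was 0.01 in NK and -0.06 in T and in B cells. The T and B classes were made of clusters in unequal shares by age, such as T cluster 6 (572 aged and 152 young cells), T cluster 18 (184 and 605) and B cluster 23 (136 and 1122). Within the 4 T clusters B2m ran from 0.776 (0.741 to 0.813), in cluster 18, to 0.974, and H2-K1 from 0.898 to 1.01. Within the 2 B clusters B2m was at 1.06 in each and H2-K1 at 0.934 and 0.851.

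H2-Q6 was the member that stood highest relative to young in NK cells, at 1.31 (1.24 to 1.39), and in T cells, at 1.31 (1.26 to 1.37). In B cells H2-Q7 was at 1.2 (1.14 to 1.28) and H2-Q6 at 1.16. Among the T clusters the H2-Q6 ratio ran from 1.27 to 2.04, the last in cluster 14, which was led by Dapl1 and Cd8b1. Tap1 stood lowest in NK cells, at 66.9 CPM aged and 99.5 young (0.672, 0.567 to 0.793), and in B cells, at 88.3 and 121 (0.731, 0.667 to 0.801). In T cells it was at 99.1 and 112 CPM (0.888), above the ratio of B2m. H2-T23 was lower in aged B cells, at 177 against 215 CPM (0.821, 0.769 to 0.877).

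In microglia most other genes of the pathway did not pass the fold as counted. Of all measured genes, 13.2% were higher and 4.5% lower. Of the 6 immunoproteasome genes, which cut peptides for class I or help to, 1 was higher and none lower. That gene, Psme2b (58.4 against 5.5 CPM), is a near copy of Psme2 and was counted at 0.19 of the overall rate at the shared barcodes. Psmb8 stood at 221 CPM aged and 215 young (1.02, 0.962 to 1.09). Of the 8 loading chaperones and trimming genes 3 were lower: Calr, whose product calreticulin helps fold heavy chains (672 against 1150 CPM, ratio 0.584), Pdia3 (323 against 539) and Hspa5 (597 against 911). Of 17 regulators 1 was lower, and of 3 other heavy chains measured none passed the fold. With the rate of counting divided out, 3 regulators were higher and 2 lower, and all 3 of those heavy chains passed the fold, 1 higher and 2 lower. Of all genes, 19.2% were higher and 10.9% lower on that scale. Of 7 class II genes 6 were measured and 4 were higher, among them Cd74, the invariant chain (76.4 against 27.9 CPM, 2.74, 2.34 to 3.21), which was counted at 0.552 of the overall rate.

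Of 32 interferon response genes measured in microglia 5 were higher and 3 lower, beside 13.2% and 4.5% of all genes, with a median log2 ratio of 0.15 beside 0.1. Isg15 stood at 15.4 CPM aged and 26 young (0.592, 0.483 to 0.727), Cxcl10 at 25 and 53.3 (0.468), and Ifi27l2a at 132 and 83.3 (1.58). In border macrophages 7 of 30 were lower and 2 higher, beside 9.03% and 16.1% of all genes, with a median of -0.3 beside 0.05. In endothelial cells 17 of 25 were lower and 3 higher, with a median of -1.1, beside 25% and 27.6% of all genes, and Isg15 stood at 46.9 CPM aged and 353 young (0.133, 0.0823 to 0.223). In the aged spleen 11 of 24 measured interferon genes were lower in NK cells, 12 of 29 in T cells and 20 of 27 in B cells. Of all genes, 11.2%, 8.24% and 9.2% were lower. In NK cells 1 interferon gene was higher and in T and B cells 0, beside 5.79%, 8.31% and 5.35% of all genes. The medians were -0.55, -0.56 and -0.76, beside -0.13, -0.08 and -0.12 for all genes. In B cells Ifi27l2a stood at 178 against 453 CPM (0.394). Of the 6 immunoproteasome genes, 1 was lower in NK cells, 2 in T cells and 3 in B cells and none was higher. Their medians were -0.39, -0.52 and -0.58, and the shares and medians of all genes in these classes are those just given.

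Receptors that read class I were measured mainly in the spleen. In T cells 13 of 14 were measured, of which 4 were higher and 2 lower in the aged spleen, beside 8.31% and 8.24% of all genes. Klra8, a Ly49 receptor gene, stood at 58 CPM aged and 9.08 young (6.39, 5.1 to 8.09), and Cd160 at 73.2 and 165 (0.443, 0.407 to 0.482). Klra8 is also an NK marker, and the 10 NK markers summed to 810 CPM in aged and 839 CPM in young T cells. The T class is also made of clusters in unequal shares by age, as given above. In NK cells 1 of 11 measured was higher and 1 lower, near the 5.79% and 11.2% of all genes. The lower one was Klrc1, which makes the NKG2A partner of CD94, at 240 and 369 CPM (0.65, 0.595 to 0.709). In B cells 7 of 9 measured were lower and 1 higher, beside 9.2% and 5.35% of all genes, with a median of -1.7. NK markers summed to 37.7 CPM in aged and 130 CPM in young B cells, and the part of that shift was not tested.

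Within microglia, cells with more interferon UMIs held more of the heavy chains H2-K1 and H2-D1. Cells thinned to 1000 UMIs were split by UMIs of the interferon list, which holds no member: 0, 1 to 2, or 3 and more. In the aged brain H2-K1 stood at 639, 717 and 898 CPM (top to zero 1.41, 1.28 to 1.54) and H2-Q7 at 23.4, 34.3 and 60.6. In the young brain H2-K1 stood at 321, 352 and 610 CPM (1.9, 1.6 to 2.25) and H2-Q7 at 7.53, 15.8 and 42.4. All of these H2-Q7 levels lay below those of free RNA, 216 CPM in the young brain and 140 in the aged one, and no fold is read from the young ones. B2m differed less, from 1779 to 2347 CPM in aged microglia (1.32) and from 701 to 1029 in young ones (1.47), and Tap1 was 1.52 and 1.67 times higher in the top range. For B2m, H2-K1, H2-D1 and Tap1 the interval lay above 1 at both ages, and also in cells thinned to 500 UMIs. Tap2 and Tapbp showed intervals that include 1 at both ages and depths. H2-T23 in young microglia turned with the depth, from 0.867 (0.497 to 1.45) at 1000 UMIs to 2.95 (1.23 to 6.34) at 500. The intervals of H2-Q4 in young microglia and of H2-Q6 at both ages lay above 1 at 1000 UMIs and included 1 at 500.

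These ranges are cuts of a count and not cell types: 953 aged and 355 young microglia had exactly 2 such UMIs and 408 and 152 had exactly 3, on either side of the upper cut. Between the ages, microglia with 0 interferon UMIs among the 1000 stood at 1779 against 701 CPM for B2m and 639 against 321 for H2-K1, and 0 such UMIs do not mark a cell without an interferon response. In border macrophages the top to zero ratio of H2-K1 was 1.56 (1.19 to 2.08) aged and 3 young, where the interval also lay above 1 but only 17 cells had 0. In spleen lymphocytes H2-K1 had ratios of 1.07 and 1.09 in NK, 1.11 and 1.1 in T and 1.05 and 1.01 in B cells of the aged and young library. Other members differed more there: in the young spleen B2m was at 1.27 (1.16 to 1.38) in T cells, and Tap1 at 1.69 (1.09 to 2.65) in T and 1.47 (1.05 to 2.06) in B cells. Cluster 1 of the microglia, with 155 aged and 114 young cells and led by Cxcl10, Lpl and Ifit3, held H2-K1 at 1.63 (1.5 to 1.77) times the level of cluster 0 in the aged brain and at 2.35 (2.06 to 2.67) times that of cluster 17 in the young one. Tap1 was 2.54 and 3 times higher there.

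**Figure D5:**
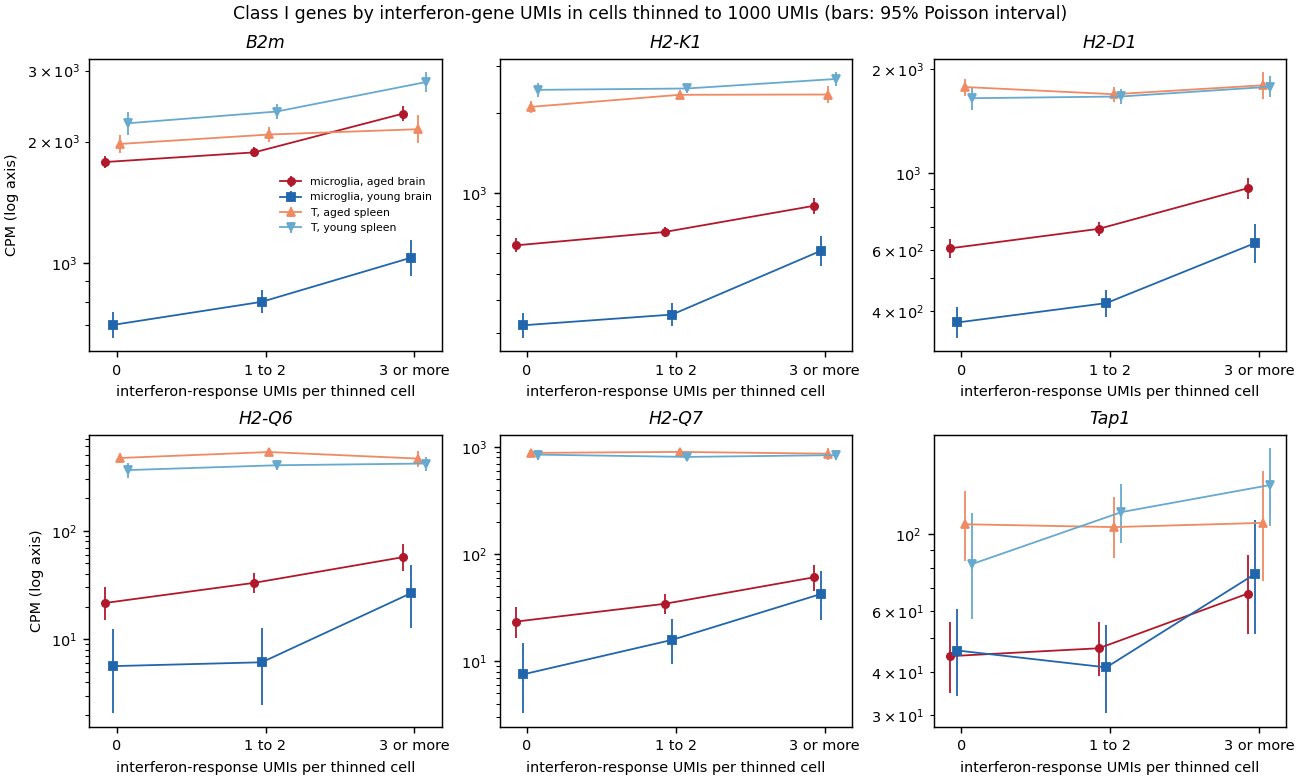
Level of 6 members (CPM, log axis) in cells thinned to 1000 UMIs that held 0, 1 to 2 and 3 or more interferon UMIs (x axis), for brain microglia and spleen T cells of both ages, with 95% Poisson intervals. H2-K1 runs from 639 to 898 CPM in aged microglia and from 321 to 610 in young ones, while H2-K1 of the T cells lies higher and moves less.

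Across 20 units of at least 50 cells, the genes most like H2-K1 on log2(CPM + 10) among 9879 were H2-Q7 (Pearson r of 0.95), H2-Q6 and H2-Q4 (each 0.94), B2m (0.93) and H2-D1 (0.92), all members. Those most like B2m were H2-K1 (0.93), H2-D1 and Psmb8 (each 0.87), Mbnl1 (0.84) and Lypla2 (0.83). Those most like Tap1 were its neighbour gene Psmb9 (0.93), Kdm6a and Fau (each 0.92), and Mthfsl and Psmb8 (each 0.9). The units share 4 libraries, so these are descriptions. Tap2 and Tapbp were the least alike of the members, at 0.45.

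The authors' deposited table of cluster markers for the aged brain lists, for its cluster 11 of 13, H2-Q7 in 82.1% of cells inside and 5.4% outside. For the same cluster the authors' deposited table gives Tap1 in 25.6% and 7.3%, the only cluster of the 4 libraries that lists Tap1. In the authors' deposited table of the young brain, Tapbp is listed for cluster 10, in 30.1% of cells inside and 14.8% outside. H2-T23 and Tap2 are listed for no cluster in any of the authors' deposited tables.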

How the data were processed

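Per the labels' protocols, libraries were made with the 10x Genomics Chromium 3′ v2 kit, although each matrix lists 6794880 barcodes, the size of the barcode list of the v3 kit. Raw UMI counts for every barcode were deposited, without normalization or cell calling, by software version 3.1.0 per the file headers. Cell Ranger 1.3.1 and GRCh38 appear in the submitters' processing notes, although the identifiers are of mouse genes. The authors' deposited marker tables give the share of cells inside and outside a cluster that hold a gene.

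From the counts, barcodes with at least 500 UMIs, at least 250 genes and at most 10% mitochondrial UMIs were kept where they passed a UMI cutoff or a test against ambient RNA (FDR of 0.01). Doublets were removed with Scrublet in scanpy 1.11.5. In both brain libraries its automatic threshold marked under 0.5% of cells, so cells with the highest scores were dropped there (0.8% for each 1000). Cells of all libraries were clustered together without integration on 2000 variable genes and 30 components at resolution 1, and clusters were named from marker lists, with the scoring rule set after the data were seen. UMIs were summed per class. Ratios of CPM carry exact conditional binomial intervals, levels Poisson intervals and shares Clopper-Pearson intervals. PCR and capture are shared by all cells of a library, so the intervals cover counting error only. A gene was measured where the libraries compared held 50 or more of its UMIs together, and it was counted as higher or lower past a fold of 1.5. All members are described; of each other list, up to 4 genes whose interval lay farthest from 1 could be named. The ratio code was checked on simulated counts. The members and lists were chosen with earlier results of these data known.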

Additional observations from a re-analysis of the deposited data

Results flagged for a closer look

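Several members lay below 1 in the aged to young ratio of spleen lymphocytes, with the whole counting interval below 1, and above 1 in microglia. B2m was at 0.868 in T cells against 2.42 in microglia. H2-K1 was at 0.96 in NK, 0.892 in T and 0.91 in B cells against 1.92. H2-T23 was at 0.924 in T and 0.821 in B cells against 1.94, and this microglial value turned to 0.358 once the rate of counting at the shared barcodes was divided out. Tapbp was at 0.902 in T and 0.913 in B cells against 1.66. With 1 library per group these differences between tissues were not tested.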

How the results depend on the processing

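No paired analysis was possible because each group is 1 library. In microglia 7 members were higher and 0 lower. Rescaling by the shared barcodes, chosen after seeing the data, gave 4 and 2, and a fold of 2 gave 3 higher. H2-Q6 and H2-Q7, whose young levels cannot be told apart from free RNA, are among the higher members in each of these counts. The share of all genes was not worked out at a fold of 2. In border macrophages, 5 higher became 3 with the barcodes of the aged spleen kept, 2 at 5% mitochondrial UMIs, 3 with doublets kept, 2 rescaled and 2 at a fold of 2, and 0 lower became 1 among cells of at least 1000 UMIs and 2 rescaled. In endothelial cells, 3 higher became 7 with median-of-ratios scaling, 5 in cells thinned to 1000 UMIs, 5 with a mean over cells, 8 among cells of at least 1000 UMIs and 1 with 10% ambient RNA subtracted. There 0 lower became 1 thinned, 2 at 5% mitochondrial UMIs and 3 rescaled. In NK cells 0 lower became 1 with scaling without mitochondrial, ribosomal and member genes, thinned, and with ambient RNA subtracted. Among ratios past the fold of 1.5, those that turned direction were H2-T23 in microglia (0.358) and border macrophages (0.588) when rescaled, and H2-Q6 (0.683) and H2-Q7 (0.946) in endothelial cells at 5% mitochondrial UMIs. Among ratios within the fold, rescaling took H2-T23 (0.233), Tap2 (0.581) and Tapbp (0.904) in endothelial cells and H2-D1 (0.779) in border macrophages across 1. Apart from rescaling, the microglial ratio ran from 2.29 to 2.51 for B2m, 1.82 to 2.14 for H2-K1 and 1.55 to 1.7 for H2-D1 over 14 alternatives. Rescaling was not run in the spleen, where the shared barcodes give no rate for the young library. In the brain it takes the aged brain to be counted like the aged spleen, which was not tested. Subtracting ambient RNA left too few UMIs for a ratio of H2-Q6 and H2-Q7 in microglia. In endothelial cells it left too few for H2-Q6, H2-Q7, Tap1 and Tap2. The cause was not tested.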
